A study of Homo sapiens with 8 samples.

Results

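The 7 clusters of zinc finger genes on chromosome 19 were examined for open chromatin in 2 B cell precursor leukaemia lines. ATAC-seq, in which the Tn5 transposase inserts adapters into accessible DNA, had given 1 peak list for each of 8 libraries. All peaks that shared at least 1 bp were merged into 133028 regions, and a region counted as called in each library with a peak inside it. The clusters were fixed by position in hg19, and a region belonged to a cluster if it started inside it. This gave 391 regions out of 133028. The rest of chromosome 19 held 2143 regions and served as the nearest comparison.

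The libraries fell into 4 groups of 2. Cells of the line 697 carried an empty guide vector and were labelled wild type for SETD2, or came from the clone BM_B and were labelled as heterozygous knockout. Cells of the line KOPN-8 carried an empty guide vector and the wild-type label, or came from the clone BA with the heterozygous label. Each line was represented by 1 clone, so the edit and other differences between that clone and its controls cannot be told apart. The 2 libraries of each group are labelled biological replicates, with no word on separate cultures, so p-values measure the spread between these libraries, which may be technical. The peak lists name no genes, so the lineage of the lines and the edit at SETD2 were not checked here.

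KRAB zinc finger proteins bind DNA through arrays of C2H2 fingers, and their KRAB domain recruits the corepressor TRIM28, which brings histone H3 lysine 9 methylation, largely to transposable elements. Their genes spread by tandem duplication and lie side by side in clusters. The bodies of these genes are known to carry lysine 9 methylation together with lysine 36 methylation, and SETD2 is the enzyme that trimethylates lysine 36 along transcribed genes. In the RefSeq gene table (GRCh38.p14), chromosome 19 held 266 of the 567 protein-coding genes with zinc finger symbols (46.9%), among 1451 protein-coding genes. The longest unbroken run of such neighbours in gene order went from ZNF737 to ZNF681 and held 27 genes. The runs from ZNF565 to ZNF793 and from ZNF627 to ZNF791 held 24 each. The build of that table differs from that of the peak lists, so no region was assigned to a gene, and the sequence under the regions was not analysed here.

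The clusters are numbered along the chromosome. Cluster 1 spans 11.6 to 12.8 Mb on the short arm and held 58 regions. Cluster 2, from 19.8 to 24.6 Mb, borders the centromere on the short arm and is known for ZNF91, ZNF43 and ZNF208. It was the longest and held 85 regions, which at 17.7 per Mb was the lowest density of the 7. Cluster 3, from 34.9 to 35.4 Mb on the long arm, held 9 regions. Cluster 4, from 36.6 to 38.4 Mb, held 43. Cluster 5, from 44.2 to 45.0 Mb, held 33, or 41.3 per Mb. Cluster 6, from 52.3 to 54.1 Mb, held 56. Cluster 7, from 56.1 to 59.1 Mb near the long-arm end, is known for the imprinted gene PEG3 and for TRIM28 itself, and held 107. Over all clusters there were 28.1 regions per Mb, and neighbours lay a median of 21.4 kb apart (quartiles 5.97 and 41.1 kb). The densest stretch of 0.2 Mb in any cluster was the one from 58.9 to 59.1 Mb in cluster 7, with 16 regions. Every library called 13 of them.

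Regions lay close to some of the cluster limits. The last region inside cluster 4 started 2.52 kb before its upper limit and was called in 8 libraries, and the first one outside started 5.55 kb beyond it and was called in 4. At the lower limit of cluster 7 the nearest region inside lay 10.2 kb from the limit (8 libraries) and the nearest outside 1.41 kb (7 libraries). The last region of cluster 2 started 254 kb before the limit, and the next region lay 3671 kb beyond it, across the centromere. Moving every limit by 0.1 Mb outward or inward changed no direction in the shares summed over the 7 clusters. Single clusters were not rerun with moved limits.

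Regions of the clusters were shared by more libraries than regions elsewhere. Of the 391, 151 (38.6%) were called in all 8 libraries, against 24.1% of the rest of chromosome 19 and 20.4% of all regions. At the other end, 59 (15.1%) were called in a single library, against 19.9% of the rest of the chromosome and 30.2% of all regions. Merged regions were also wider in the clusters, with a median of 563 bp (quartiles 308 and 795) against 415 bp in the rest of the chromosome and 340 bp over all regions. A merged region is the union of its peaks, and width followed the number of calls. For regions called in 8 libraries the median was 814 bp in the clusters, 780.5 bp in the rest of the chromosome and 718 bp over all regions. For those called in 1 library it was 212, 224 and 220 bp. At equal numbers of calls the sets thus differed much less in width. The share called everywhere was highest in cluster 4, with 22 of 43 (51.2%), and cluster 7, with 51 of 107 (47.7%). It was lowest in cluster 5, with 4 of 33 (12.1%). No test was made of these shares, since neighbouring regions are not replicates.

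**Figure D1:**
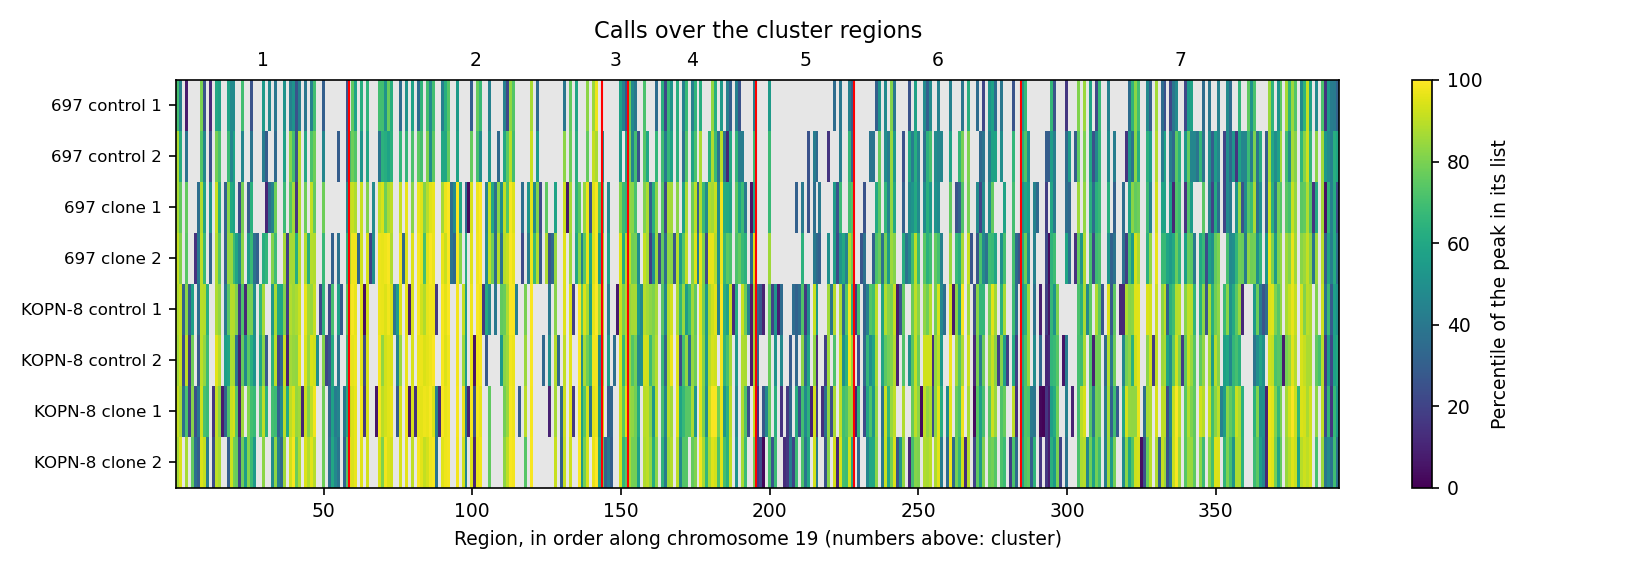
Calls over the 391 regions of the clusters (x axis, in order along the chromosome, red lines between clusters) in the 8 libraries (rows). Colour gives the percentile of the strongest peak within its own list and grey means no peak. The 2 rows of 697 controls hold the most grey, and the bright block of cluster 2 is seen in the 697 clone and in all KOPN-8 libraries but is dim in the 697 controls.

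The strength of a peak was read from the authors' deposited value, taken to be a fold over local background, as a percentile within its own list. In each cluster the region with the highest smallest percentile over the 8 lists is given here. In cluster 7 it lay from 58986952 to 58987851, 900 bp wide, where the folds were 12.3 and 12.7 for the 697 controls, 11.5 and 13 for the 697 clone, 11.9 and 11.4 for the KOPN-8 controls and 11.6 and 12.4 for the KOPN-8 clone. Its percentiles, from 87.2 to 92.3, placed it in the upper part of every list. In cluster 2 it lay from 24269677 to 24270577, with percentiles of 97.0 and 87.4 for the 697 controls, 98.6 and 99.6 for the 697 clone and 97.6 to 99.7 in KOPN-8. The corresponding region of cluster 4 lay from 37742255 to 37743111 (smallest percentile 83.7), that of cluster 6 from 52692555 to 52693771 (79.1) and that of cluster 1 from 11707903 to 11708856 (73.4). In clusters 3 and 5 the value was lower, at 54.9 from 35167811 to 35168956 and 54.7 from 44258614 to 44259397. It came from a 697 control in both.

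The first comparison was between the lines. The 697 controls had 183 and 228 peaks in the clusters and the 697 clone 265 and 302, while the KOPN-8 controls had 311 and 303 and the KOPN-8 clone 318 and 304. All 4 lists of 697 lay below all 4 of KOPN-8, although the list of the second clone library was the longest of the 8, with 76495 peaks, and that of the first control the shortest, with 57154. As a share of all peaks, the clusters took 0.365 ± 0.0502% (SD, n = 4) in 697 and 0.465 ± 0.016% in KOPN-8. The difference of 0.1 percentage points was larger than the SD of either line (exact permutation over libraries, two-sided p = 0.0286, the smallest that 4 against 4 can give). It was not larger than the range of the 697 lists, from 0.320% to 0.421%. The test pools both arms of a line as if they were replicates, and in 697 the arms had means of 0.323% and 0.408%. Without any 1 of the 4 KOPN-8 libraries the p was 0.0571 (exact permutation), above the threshold. The rest of chromosome 19 differed more, at 1.39 ± 0.24% in 697 and 2.38 ± 0.0831% in KOPN-8.

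Measured within chromosome 19, the order of the lines was the opposite. The clusters' share of the chromosome's peaks was 22.0% and 20.9% for the 697 controls and 21.1% and 19.6% for the 697 clone. For the KOPN-8 controls it was 16.0% and 16.7%, and for the KOPN-8 clone 15.9% and 16.8%. The 4 values of 697 all lay above the 4 of KOPN-8, with means of 20.9 ± 0.976% and 16.4 ± 0.454%, and KOPN-8 was lower by 4.56 percentage points (the value coded KOPN-8 minus 697 was -4.56, exact permutation, two-sided p = 0.0286, n = 4 per line). Exact binomial 95% intervals ran from 17.7% to 25% over the lists of 697 and from 14.3% to 18.6% over those of KOPN-8 and cover counting error only. KOPN-8 had more peaks than 697 both inside and outside the clusters, and by the larger factor outside them.

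**Figure D2:**
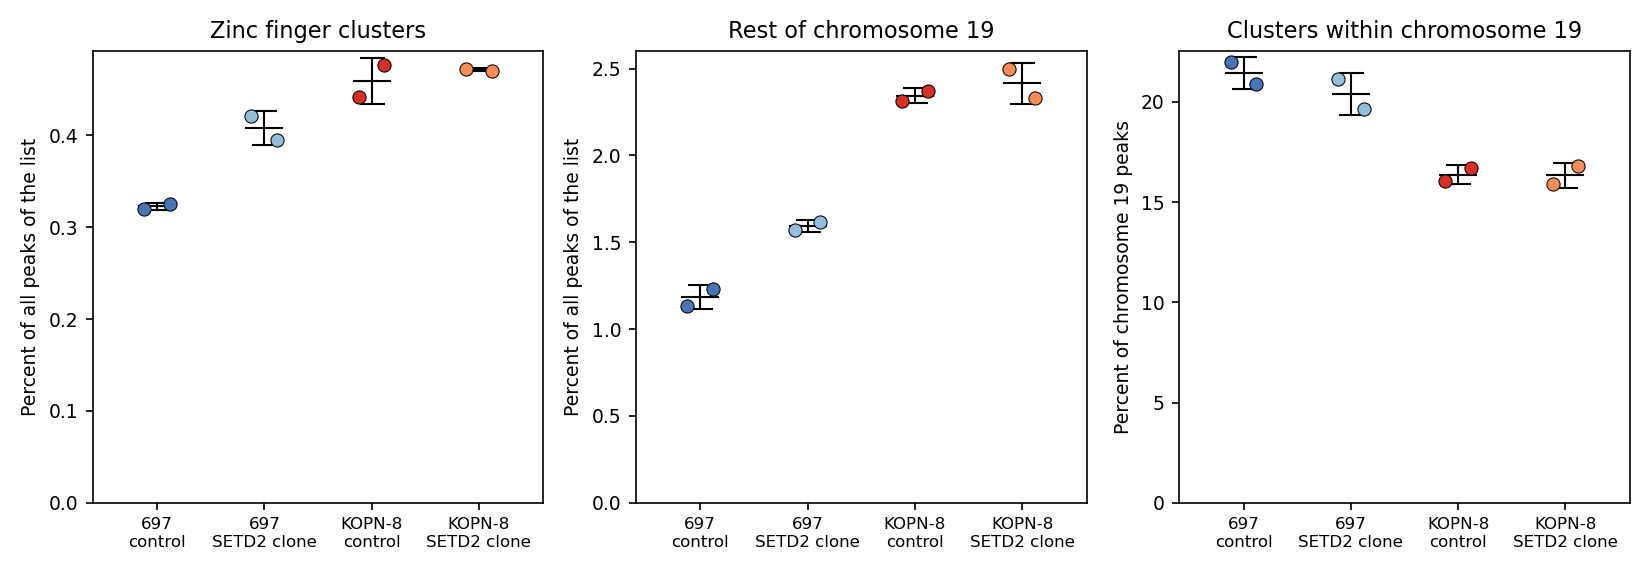
Share of peaks by group, with each library as a dot and the mean and SD of 2 libraries in black. The left panel gives the clusters and the middle panel the rest of chromosome 19 as a percent of all peaks of a list, and the right panel gives the clusters as a percent of the peaks on chromosome 19. The 697 controls are lowest in the first 2 panels, at 0.32% and 0.325% in the clusters, and all 697 lists lie above all KOPN-8 lists in the right panel.

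The single clusters did not follow 1 pattern. As a share of the chromosome's peaks, cluster 7 took 6.78 ± 0.794% (SD, n = 4) in 697 and 4.66 ± 0.264% in KOPN-8. Cluster 2 took 4.60 ± 0.597% and 3.05 ± 0.11%, and cluster 4 took 2.98 ± 0.315% and 1.99 ± 0.114%. In these 3 clusters every 697 list lay above every KOPN-8 list. Cluster 5 went the other way, with 0.823 ± 0.158% in 697 and 1.24 ± 0.141% in KOPN-8, again without overlap. Each of these 4 had an exact permutation p of 0.0286 and an adjusted p of 0.05 over the 7 clusters, which lies at the threshold and not under it. Clusters 1, 3 and 6 had adjusted p-values of 0.829, 0.829 and 0.08 (exact permutation, Benjamini-Hochberg, n = 4 per line). Among the strongest 50% of each list, 5 clusters passed with an adjusted p of 0.04 (exact permutation), and the difference in cluster 6 (KOPN-8 minus 697) was 0.641 percentage points, against -0.239 in the full lists. All these tests pool both arms of a line as if they were replicates. The arms did not always overlap. In cluster 7 the full lists of 697 had means of 7.39% for the controls and 6.16% for the clone, without overlap.

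**Figure D3:**
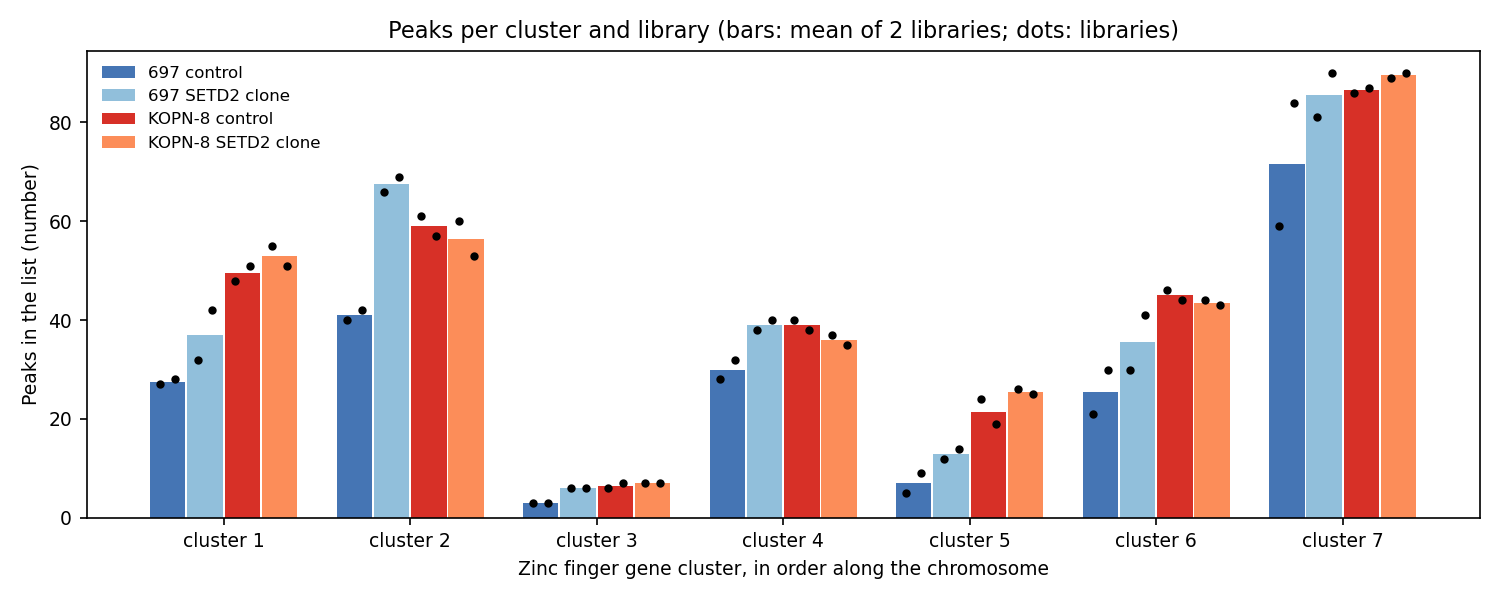
Number of peaks in each of the 7 clusters (x axis) by group, with bars for the mean of 2 libraries and dots for the libraries. In cluster 2 the 697 clone (66 and 69) exceeds both the 697 controls (40 and 42) and KOPN-8 (53 to 61). In clusters 1, 3, 5, 6 and 7 its mean lies between the 697 controls and KOPN-8.

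Few regions of the clusters belonged to 1 line alone. Regions called in all 4 libraries of KOPN-8 and none of 697 numbered 16 of 391 (4.09%), against 11.7% of the rest of chromosome 19 and 7.3% of all regions. Regions called in all 4 libraries of 697 and none of KOPN-8 numbered 7 (1.79%), against 0.7% and 5.85%. Outside the clusters chromosome 19 was lopsided, with 251 regions of KOPN-8 alone and 15 of 697 alone. With calls that must cover 50% of a region the counts in the clusters were 35 and 4. With the limits moved inward by 0.1 Mb those of KOPN-8 came to 9, without the second library of the 697 clone they came to 29, and in the strongest 50% of each list those of 697 came to 3.

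The strongest region of KOPN-8 alone lay in cluster 2 from 21751740 to 21752382, where the folds were 12.4 and 10.9 for the controls and 15.7 and 13.6 for the clone. Its smallest percentile was 85.6, and no 697 library called it. The neighbouring region lay from 21748938 to 21749671 and was called in both libraries of the 697 clone and in no other library. The next of KOPN-8 alone lay in cluster 2 from 23562422 to 23562793 (smallest percentile 73.6), in cluster 7 from 56189346 to 56189963 (73.5), in cluster 1 from 11678669 to 11679444 (57.0) and in cluster 5 from 44269262 to 44270020 (51.5). The strongest region of 697 alone lay in cluster 7 from 58545112 to 58545538, where the folds were 8.74 and 7.47 for the controls and 8.84 and 10.7 for the clone (smallest percentile 68.3). It was followed by regions in cluster 2 from 23945576 to 23946431 (58.9) and in cluster 6 from 52598961 to 52599318 (51.4). The fourth and the fifth lay in cluster 7 from 58570395 to 58571016 (42.4) and in cluster 2 from 23598354 to 23599050 (35.2).

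The second comparison was between the 697 clone and its controls. In the clone 42 of the 391 regions (10.7%) were gained, meaning that both clone libraries called them and neither control did, and 0 were lost. Over all regions 3.08% were gained and 1.32% lost, and in the rest of chromosome 19, which leaned the same way, 146 of 2143 (6.81%) were gained and 2 were lost. A count of 0 of 391 allows a share of up to 0.767% (3 of 391), as counting error only. This bound takes the regions as independent, which neighbours may not be. The clusters thus held more gained regions for their number than the rest of the chromosome, which itself held more than the genome, and this difference between regions was not tested. When a call had to cover 50% of a region the count gained was 67 and that lost was 0. Leaving out a library loosens the rule, and gained regions then numbered 74 without control 2 and 72 without clone library 1.

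Gains were uneven over the clusters. Cluster 2 held 20 of the 42, which was 23.5% of its 85 regions. Cluster 4 followed with 7 of 43 (16.3%), cluster 3 with 1 of 9, cluster 5 with 3 of 33 (9.09%) and cluster 1 with 5 of 58 (8.62%). Clusters 6 and 7 held 3 each, at 5.36% and 2.80% of their regions, the latter close to the 3.08% of all regions. Within cluster 2, the stretch from 21.6 to 21.8 Mb held 4 gained regions among 7, where the controls had 1 peak each, the clone 6 each and the lists of KOPN-8 between 3 and 5. The stretch from 23.6 to 23.8 Mb held 3 among 7, where both controls had 0 peaks, the clone 3 and 6 and KOPN-8 between 1 and 4. Gained regions seldom adjoined each other. The longest runs of neighbouring gained regions held 2, of which there were 2 in cluster 2 and 2 in cluster 4.

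**Figure D4:**
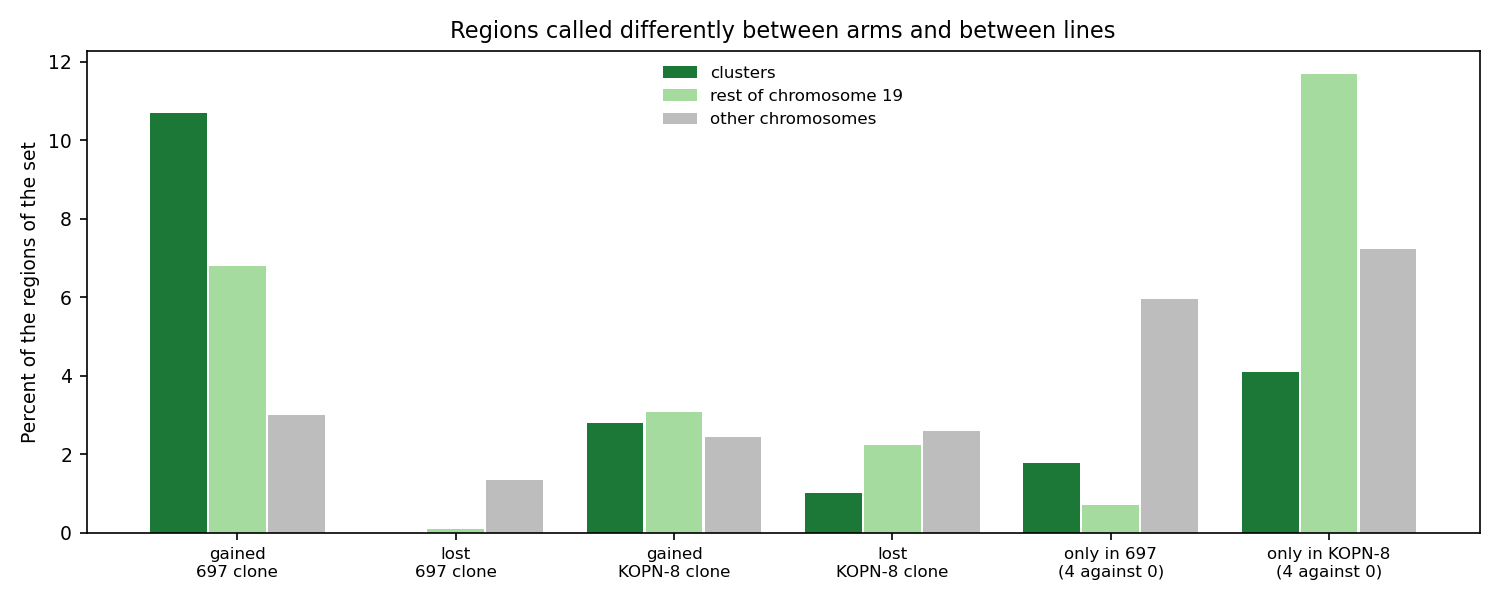
Percent of regions gained or lost in each clone and called in 1 line alone (x axis), for the clusters, the rest of chromosome 19 and all other chromosomes. The clusters have the highest bar for gains in the 697 clone, 10.7%, and no bar for losses, and a lower bar than the rest of the chromosome for regions of KOPN-8 alone, 4.09% against 11.7%.

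Many regions that the 697 clone gained were open in the other line, as were many regions of the clusters in general. All 4 KOPN-8 libraries called 247 of the 391 regions of the clusters. They called 1155 of the 2143 in the rest of chromosome 19 and 44739 of all 133028 regions. Of the 42, both KOPN-8 controls called 27 (64.3%). There were 21 (50%) called in all 4 KOPN-8 libraries and 13 (31.0%) in none. In the rest of chromosome 19, both KOPN-8 controls called 57.5% of the gained regions, all 4 libraries 54.1% and none 26.03%, so that the clusters were not higher by every measure. Over the genome these shares were 27.3%, 22.5% and 54.1%. By these counts gained regions were called in all 4 KOPN-8 libraries less often than regions in general, both in the clusters and over the genome. In the rest of the chromosome gained regions were called about as often. Regions in general include those called in all 8 libraries, 151 in the clusters and 27107 over the genome. No gained region can be among them, since the 697 controls must lack it. The counts thus cannot show whether gained regions differed in KOPN-8 from other regions that the 697 controls lacked. Cluster 2 differed from the others in how KOPN-8 called its gained regions. Of its 20 gained regions 10 were called in no KOPN-8 library, whereas of the 22 gained in the other clusters 3 were, a difference that was not tested. The 697 clone had more peaks in the clusters than its controls, with means of 283.5 and 205.5. The same calls were also counted from the side of KOPN-8, which adds no separate evidence. Of the 247 regions of the clusters called in all 4 of its libraries, 154 (62.3%) were called in both 697 controls and 200 (81.0%) in both libraries of the 697 clone. In the rest of the chromosome these values were 45.5% and 62.8%, and on the other chromosomes 63.1% and 67.8%. In cluster 2 they were 34 and 41 of 44, in cluster 4 they were 22 and 31 of 33, and in cluster 5 only 4 and 7 of 16.

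The 5 strongest gained regions were all but 1 in cluster 2. The first lay from 23692562 to 23693181, 620 bp wide, with folds of 9.02 and 11.9 in the clone and percentiles of 75.4 and 87.7. No other library called it. The second and the third lay from 24006691 to 24007221 and from 23982031 to 23982612, with folds of 10.5 and 8.91 and of 8.84 and 10.5. Both were called in all KOPN-8 libraries, where the third had folds from 17.0 to 19.8 and percentiles from 98.3 to 99.8. The fourth lay from 21182452 to 21183091 (smaller percentile 70.4). The fifth lay in cluster 4 from 37663512 to 37663935 (68.0). These 2 were also called in all KOPN-8 libraries. The median of the smaller percentile was 37.0 over the 42 gained regions, against 25.7 in the rest of the chromosome and 20.8 over all gained regions.

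As a share of all peaks the clusters took 0.320% and 0.325% for the 697 controls and 0.421% and 0.395% for the clone, with means of 0.323 ± 0.00358% and 0.408 ± 0.0182% (SD, n = 2). The groups did not overlap, and the clone's mean was 1.26 times that of the controls (exact permutation, two-sided p = 0.333, the smallest that 2 against 2 can give). In the rest of the chromosome the factor was 1.34, from 1.18 ± 0.0686% to 1.59 ± 0.0338%. Within the chromosome the clusters' share was 21.4 ± 0.789% for the controls and 20.4 ± 1.07% for the clone, a difference of -1.04 percentage points that was smaller than the SD of the clone (exact permutation, two-sided p = 0.667, n = 2). In the strongest 50% of each list this difference was 0.766. By cluster, the clone's share of all peaks was 1.82 times that of the controls in cluster 3, 1.73 in cluster 5, 1.5 in cluster 2, 1.27 in cluster 6, 1.21 in cluster 1, 1.19 in cluster 4 and 1.10 in cluster 7. The 2 highest factors rest on few peaks. Cluster 3 had 3 peaks in each control and 6 in each clone library, and cluster 5 had 5 and 9 against 12 and 14. The libraries of the 2 groups overlapped in cluster 7 and did not overlap in the other 6.

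The difference was larger among strong peaks. The strongest 10000 peaks were taken from each list, so that list length did not enter. Of these, each 697 control had 13 in the clusters, the 697 clone 55 and 69, the KOPN-8 controls 112 and 109 and the KOPN-8 clone 117 and 110. The 697 clone thus stood 4.77 times above its controls, and the KOPN-8 clone 1.03 times. In the rest of the chromosome the counts were 31 and 31, 87 and 115, 166 and 163, and 189 and 159, so that the 697 clone stood 3.26 times above its controls. Cluster 2 held 5 and 4 of these peaks for the 697 controls and 32 and 38 for the clone, against 38 and 38 in the KOPN-8 controls and 38 and 37 in the KOPN-8 clone. The clone's second library thus equalled the lists of the other line there. In cluster 7 the controls had 7 and 4, the clone 7 and 8 and KOPN-8 between 22 and 31. In cluster 6 the counts were 0 and 0, 0 and 2, and 10 to 12. Clusters 1 and 4 lay between, with 6 and 7 and with 10 and 11 in the 697 clone and 15 or 16 and 14 to 16 in KOPN-8. With 20000 peaks the clusters held 52 and 51 for the 697 controls and 112 and 129 for the clone.

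**Figure D5:**
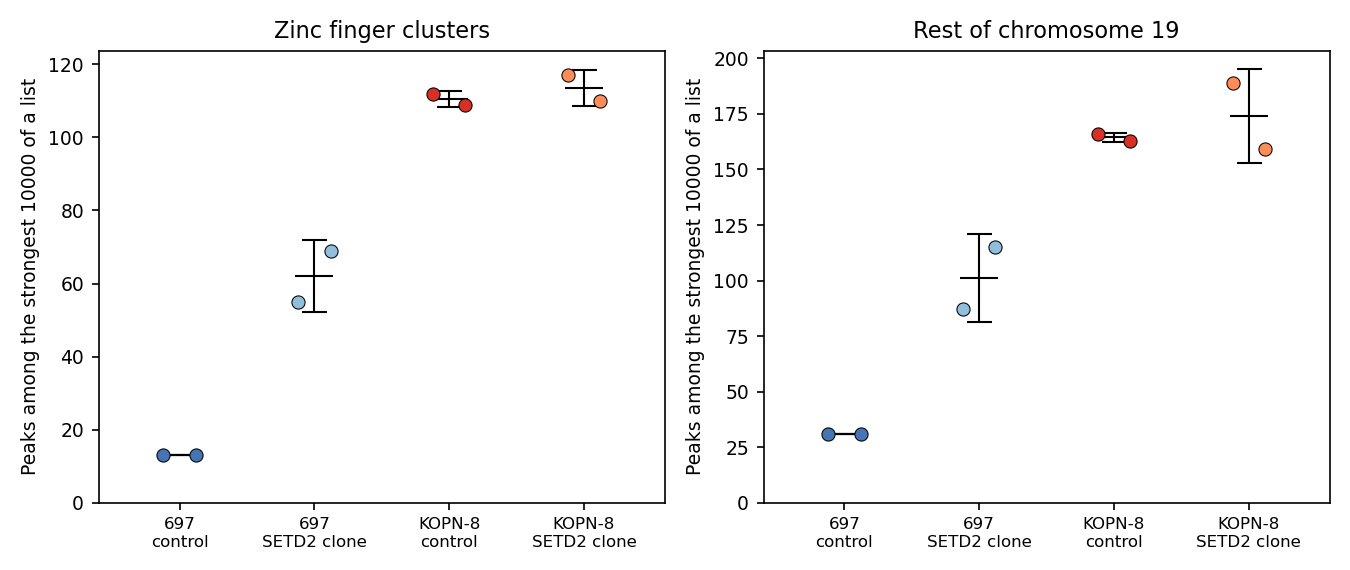
Number of peaks among the strongest 10000 of each list (y axis) that lie in the clusters (left) or in the rest of chromosome 19 (right), with each library as a dot and the mean and SD of 2 libraries in black. In the clusters the 697 controls hold 13 each, the 697 clone 55 and 69 and the KOPN-8 lists 109 to 117.

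Within single lists the peaks of the clusters were placed differently relative to the rest of the chromosome. In KOPN-8 the median percentile of peaks in the clusters was between 75.5 and 78.3, and that of the rest of the chromosome between 50.7 and 52.8. In the 697 clone it was 63.4 and 67.4 in the clusters and 48.3 and 54.9 in the rest. In the 697 controls it was 47.9 and 57.5 in the clusters and 47.0 and 48.1 in the rest, so that in control 1 the 2 hardly differed. Cluster 2 was the strongest in every list, with a median percentile between 93.6 and 94.3 in KOPN-8, 82.9 and 88.2 in the 697 clone and 62.9 and 66.4 in the 697 controls. Peaks of the clusters were also broad in KOPN-8, with a median width between 444 and 512 bp against 372 to 383 bp in the rest of the chromosome. In the 697 controls they were 295 and 336 bp wide, against 323 and 336 bp in the rest of the chromosome. In the 697 clone they were 381 and 398 bp wide, against 340 and 369 bp. These values describe each list on its own, and list lengths differed.

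The third comparison was between the KOPN-8 clone and its controls, and there the clusters showed little difference. Of the 391 regions 11 (2.81%) were gained and 4 (1.02%) were lost, against 2.45% and 2.59% of all regions and 3.08% and 2.24% of the rest of the chromosome. The share gained was near that of the genome. As a share of all peaks the clusters took 0.442% and 0.477% for the controls and 0.473% and 0.470% for the clone. The means of 0.459 ± 0.0247% and 0.471 ± 0.0017% (SD, n = 2) differed by less than the SD of the controls (exact permutation, two-sided p = 1). Without control 1 the difference of 0.0123 percentage points became -0.00523. Within the chromosome the shares were 16.4 ± 0.489% and 16.3 ± 0.615% (exact permutation, two-sided p = 1, n = 2), and the difference of -0.0339 percentage points became 0.0354 in the strongest 50% of each list, 0.312 without control 2 and 0.401 without clone library 1. The counts of changed regions were small and moved with the rule: with the limits moved inward by 0.1 Mb there were 6 gained and 2 lost. With 1 KOPN-8 library left out there were 17 to 26 gained and 7 to 17 lost.

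The median of the smaller percentile was 30.1 over the 11 regions gained in the KOPN-8 clone, against 18.5 in the rest of the chromosome and 19.8 over all gained regions. The strongest was in cluster 7 from 58951428 to 58951832, with folds of 7.58 and 6.69 (smaller percentile 57.6). It was followed by regions in cluster 1 from 12776047 to 12776300 (42.0), in cluster 6 from 53360814 to 53361297 (34.6), in cluster 1 from 12787225 to 12787508 (31.7) and in cluster 2 from 23842625 to 23842835 (30.1). Cluster 1 held 4 of the 11. Of the 11, 10 (90.9%) were called in no library of 697, against 72.7% of those gained in the rest of the chromosome and 58.8% over the genome. The 4 lost regions lay in cluster 2 from 23065499 to 23065947 (smaller percentile of the 2 controls 53.2) and from 22213516 to 22213874 (28.8), and in cluster 4 from 36661666 to 36661936 (47.3) and from 38397071 to 38397390 (7.44). Of these 4, all but the one at 36661666 were gained in the 697 clone, against 3 of 48 lost regions in the rest of the chromosome and 67 of 3450 over the genome. The difference in these shares was not tested.

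Over both lines together, the clusters' share of all peaks was higher in the clones by 0.0486 percentage points (exact permutation within each line, two-sided p = 0.167, n = 4 per arm) and their share of the chromosome's peaks differed by -0.539 (exact permutation, two-sided p = 0.444). With lists of equal length the former was 0.0652 (exact permutation, two-sided p = 0.0556, the smallest the design can give). Among single clusters, cluster 5 was the one in which both clones lay above both controls in each line as a share of the chromosome's peaks. Its share was 0.601% and 0.824% for the 697 controls and 0.958% and 0.910% for its clone. For the KOPN-8 controls it was 1.24% and 1.05%, and for its clone 1.30% and 1.38%. The mean difference was 0.209 percentage points, higher in 4 of 4 clone libraries than in their controls (exact permutation, p = 0.0556 and adjusted p = 0.389 over 7 clusters). The other 6 clusters also had an adjusted p of at least 0.389 (exact permutation).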

How the data were processed

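The submitters' processing notes name Bowtie2, MACS2 and the build hg19. Their versions and settings, the handling of duplicates and any shift of cut sites were not given there or in the labels. Separate lists for each library were made by the authors, and each deposited list gives for every peak a value without a header, read from its range as the peak caller's fold over local background (a linear ratio). That value was used to rank and filter peaks inside 1 list. Counts and percentiles from these ranks were compared between groups. Folds of single regions are printed as deposited, without normalization between lists. Of the peak numbers in a list, between 0.946% and 1.04% were missing. Read depth is unknown, and lists held 57154 to 76495 peaks of at least 200 bp.

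Lists were merged and counted in Python 3.11.15 with pandas 2.3.3 and numpy 2.4.6. Positions count from 1. Near-identical genes share sequence, and how reads with several matches were placed in the clusters is not given. Shares were tested by two-sided exact permutation of the labels of libraries, with a threshold of 0.05 and Benjamini-Hochberg adjustment over the 7 clusters. Merging, calling and the permutation test were tested on simulated lists. Named regions are, per cluster, the one with the highest smallest percentile in all 8 lists, and per kind of change up to 5 by the smallest percentile over the lists that call them. The members, cluster limits and lists were chosen with earlier results of these data known. No hg19 annotation or genome was used.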

Additional observations from a re-analysis of the deposited data

Results flagged for a closer look

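In cluster 4, from 36.6 to 38.4 Mb, the clones of the 2 lines differed from their controls in opposite directions as a share of all peaks, with every clone library on 1 side of both controls in each line. The share was higher by 0.00898 percentage points in the 697 clone, from 0.0473 ± 0.00236% to 0.0563 ± 0.00567% (SD, n = 2). In KOPN-8 the difference was -0.00373 percentage points, from 0.0583 ± 0.0021% to 0.0545 ± 0.000603%. The counts behind these shares were 28 and 32 peaks against 38 and 40 in 697, and 40 and 38 against 37 and 35 in KOPN-8. As a share of the chromosome's peaks the 2 clones went the same way. The differences were -0.331 percentage points in 697, where the libraries overlapped, and -0.188 in KOPN-8. In 697 the clone's share of all peaks was 1.19 times that of the controls in cluster 4 and 1.34 times in the rest of chromosome 19. The difference between the lines was not tested. The share of all peaks in cluster 4 was 1 of 16 shares looked at in this way.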

How the results depend on the processing

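Groups of 2 libraries limit every test of a clone, and without read counts the depth behind a missing peak is unknown. In the strongest 50% of each list the clusters' share of chromosome 19 peaks was higher in the clones, by 0.766 points in 697, 0.0354 in KOPN-8 and 0.401 over both, against -1.04, -0.0339 and -0.539 in the full lists; none of these passed. There too the line difference was 0.264 in cluster 1 and 0.641 in cluster 6, 5 clusters passed in place of 0 (4 had an unadjusted p under the threshold in the full lists), and the clone difference over both lines was 0.37, -0.308, 0.0353 and 0.282 in clusters 1, 2, 4 and 6. With lists of equal length the line difference in cluster 3 was 0.00101. The cause of these changes was not tested.

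With 1 library left out, the KOPN-8 clone difference ranged from -0.468 to 0.401 within the chromosome and from -0.00523 to 0.0297 of all peaks, and the line difference in the share of all peaks from 0.085 to 0.118, with an exact permutation p of 0.0571 without any 1 KOPN-8 library. The cause was not tested. Gained regions ranged from 42 to 74 in 697 and 11 to 26 in KOPN-8, lost ones from 0 to 3 and 4 to 17, and those of 1 line alone from 7 to 10 (697) and 16 to 29 (KOPN-8). Calls covering 50% of a region gave 67 gained in 697, 7 lost in KOPN-8 and 4 and 35 of 1 line alone. The strongest 50% gave 6 gained in KOPN-8 and 3 of 697 alone. Limits moved inward gave 6 gained and 2 lost in KOPN-8 and 9 of KOPN-8 alone. Among the strongest 20000 peaks in place of 10000 the clusters held 0.258%, 0.883% and 0.908% in the 697 controls and the KOPN-8 controls and clone.

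The replicate block, with labels swapped within pairs of equal number, gave line differences of -4.56 and 0.09998 points with an exact permutation p of 0.125, the smallest that 4 pairs can give. No clone test could change its call, because its smallest possible p lay above the threshold both with and without the block. The labels tie no replicate number to a shared culture or day. The differences between replicates correlated between arms at 0.00295 in 697 and -0.00265 in KOPN-8 over all regions, and at 0.119 and -0.0294 over those of the clusters.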
